A study of Rattus norvegicus with 22 samples.

Results

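The 10 genes described here encode the liver's machinery for making and desaturating fatty acids, namely Acly, Acaca, Fasn, Elovl6, Me1, Fads1, Fads2, Srebf1, Mlxipl and Thrsp. They were chosen by symbol from the normalised read counts of 14971 genes, and all 10 were found. RNA was sequenced in 22 liver libraries, made after hepatic vagotomy, the cutting of the vagus branch to the liver, or after sham surgery, followed by ozone or air. The groups were vagotomised rats in ozone (HepV_O3, n = 5), sham rats in ozone (Sham_O3, n = 6), vagotomised rats in air (HepV_Air, n = 6) and sham rats in air (Sham_Air, n = 5). All rats were operated on at 12 weeks of age, recovered for 5 to 6 days on standard chow, and were exposed to 1 ppm ozone or to air for 4 hours on 1 or 2 days. Necropsy followed within 2 hours of exposure. Strain, sex, feeding state at necropsy and the number of exposure days of each rat are not given in the sources used here. The labels number the libraries of a group as replicates, and each is taken as 1 rat, which they do not state, so that p-values measure the spread between these libraries, which may in part be technical.

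Column totals of the normalised counts ranged from 15432903 to 19603241 over the 22 libraries. In 18 libraries the reads themselves could be recovered, 14098863 to 21141337 per library. A set of 4 libraries stands apart technically: vagotomised ozone library 1, sham ozone library 3 and vagotomised air libraries 1 and 5. Their 5.8S ribosomal RNA was 38.1 to 179.5 normalised counts, against 342 to 3775 in the other 18, and they are called low in 5.8S below. The same 4 held 97.2 to 149 summed normalised counts of 57 small nucleolar RNA genes, against 912 to 8035 in the others. All 7 hepatocyte markers were present, with summed normalised counts of at least 2069922 in every library, led by Alb, the gene of serum albumin. Fat tissue also makes fatty acids, so adipocyte markers were read. Of 8 such markers, 4 have a row (Cfd, Cidec, Fabp4 and Lipe), and the defining ones Adipoq, Plin1, Lep and Retn have none and were not analysed here.

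Fatty acid synthesis turns surplus carbohydrate carbon into palmitate. Acly cleaves citrate to acetyl-CoA in the cytosol, Acaca carboxylates it to malonyl-CoA, and Fasn condenses these units into palmitate with NADPH that comes in part from malic enzyme, Me1. Elovl6 lengthens palmitate to stearate. Fads2 and Fads1 introduce double bonds at an early and a later step on the way to long polyunsaturated fatty acids. Transcription of the pathway in liver is driven by SREBP1, the product of Srebf1, which insulin and the oxysterol receptor LXR induce, and by ChREBP, the product of Mlxipl, which responds to glucose metabolites. Thrsp encodes a small nuclear protein that thyroid hormone, carbohydrate and insulin induce together with the lipogenic enzymes.

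Promoter sequence was at hand for 7 of the 10 genes and missing for Acaca, Fasn and Elovl6. It came as RefSeq windows of build GRCr8 that run from 250 bases before to 50 bases after a transcription start. The reads were aligned to another build, rn6, so no gene coordinates are given beyond these windows. The windows of Acly, Me1, Fads1 and Fads2 are shown because these 4 genes separated ozone from air in sham rats without overlap. Each is written 5′ to 3′ on the gene's strand, with capitals marking the CCAAT box, CCAAT, which NF-Y binds, and the GC box, GGGCGG, which Sp1-type factors bind, on either strand.
Acly, chr10:85963582-85963881, minus strand: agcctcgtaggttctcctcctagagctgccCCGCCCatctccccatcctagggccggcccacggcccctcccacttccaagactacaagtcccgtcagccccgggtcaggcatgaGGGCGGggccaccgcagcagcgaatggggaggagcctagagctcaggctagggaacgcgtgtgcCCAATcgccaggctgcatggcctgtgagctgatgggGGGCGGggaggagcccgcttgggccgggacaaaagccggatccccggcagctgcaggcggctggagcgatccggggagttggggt
Me1, chr8:96540195-96540494, minus strand: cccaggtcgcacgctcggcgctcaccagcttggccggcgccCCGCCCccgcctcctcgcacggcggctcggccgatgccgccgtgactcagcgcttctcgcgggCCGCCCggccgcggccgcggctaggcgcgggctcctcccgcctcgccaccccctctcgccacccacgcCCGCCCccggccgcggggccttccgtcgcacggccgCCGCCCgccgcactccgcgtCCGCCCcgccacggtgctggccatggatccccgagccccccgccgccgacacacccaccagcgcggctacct
Fads1, chr1:216252442-216252741, plus strand: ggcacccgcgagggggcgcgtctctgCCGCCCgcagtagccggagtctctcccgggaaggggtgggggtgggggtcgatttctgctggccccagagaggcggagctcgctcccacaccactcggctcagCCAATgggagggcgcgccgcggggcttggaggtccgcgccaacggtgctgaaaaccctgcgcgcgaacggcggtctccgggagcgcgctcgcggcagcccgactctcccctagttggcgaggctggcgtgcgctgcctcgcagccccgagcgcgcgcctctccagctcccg
Fads2, chr1:216171984-216172283, minus strand: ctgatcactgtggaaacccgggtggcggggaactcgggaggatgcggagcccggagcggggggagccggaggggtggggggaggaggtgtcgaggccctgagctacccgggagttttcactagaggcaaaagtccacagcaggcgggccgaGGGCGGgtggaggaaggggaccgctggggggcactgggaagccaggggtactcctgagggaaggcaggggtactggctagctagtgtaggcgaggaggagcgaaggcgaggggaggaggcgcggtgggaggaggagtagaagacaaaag
The Acly window holds 1 CCAAT box and 3 GC boxes, the Fads1 window 1 of each, the Me1 window 5 GC boxes and the Fads2 window 1 GC box, with no overlap between matches. The 7 genes had 9 windows, as Srebf1 and Mlxipl had more than 1 each. Counted by gene, 5 of the 7 had a CCAAT box in at least 1 window and 6 had a GC box. Of all 33469 windows in the table, counted by window and not by gene, 37.5% held a CCAAT box and 33.1% a GC box. The SREBP motif TCACNCCAC was found in 1.12% of all windows and the E-box CACGTG, read by ChREBP and USF factors, in 6.42%. Neither was matched in a window of the 7 genes, on either strand. With so few windows and such low shares, that absence is uninformative about the set. The shorter SREBP motif TCACNCC was matched in both Mlxipl windows and in no window of the other 6 genes, against 14.6% of all windows.

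The first question was what ozone changed in rats with an intact hepatic vagus. The enzymes at the start and the end of synthesis fell, as did Me1, a source of its NADPH, and both desaturases. The transcription factors did not pass the test. Of the 9 genes tested, 5 fell (Acly, Fasn, Me1, Fads1 and Fads2), none rose and 4 did not pass (Acaca, Srebf1, Mlxipl and Thrsp). At an unadjusted p under 0.05 there were 6, the 5 and Acaca. Over all 12424 genes tested, 28.4% passed, namely 13.8% that fell and 14.6% that rose, and 39.0% had an unadjusted p under 0.05. The median log2 fold change of the 9 was -0.76, against 0.01 over all genes. Log2 fold changes here and below are of the normalised count plus 1, ozone over air or vagotomy over sham, with their standard error. The words rose and fell are kept for genes with a Benjamini-Hochberg adjusted p under 0.05 in limma over all genes tested. Bulk RNA cannot tell fewer cells of a type from less RNA per cell.

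Acly, which supplies the acetyl-CoA, had 997 at the lowest, 1459 at the median and 2047 at the highest normalised counts in sham ozone rats. In sham air rats it had 2800.5, 5253, 3448, 3058 and 2971. Every ozone rat was below every air rat, and Acly fell by 1.28 ± 0.18 (adjusted p = 1.52e-05), to 0.412 times the air level. Acaca, the carboxylase that commits carbon to the pathway, had 409.6 at the lowest, 574 at the median and 894 at the highest in ozone. In air it had 474, 929.9, 866, 889.8 and 877. Air library 1 lay far below the other 4 and the highest ozone library lay above 4 of the 5 air libraries, so that the groups overlapped, and the difference of -0.42 ± 0.19 did not pass (adjusted p = 0.116, 95% confidence interval -0.82 to -0.01). Without air library 1 it was -0.60 with adjusted p = 0.0162, and without ozone library 5 it was -0.54 with adjusted p = 0.0389, both by limma. Of 38 alternative settings these 2 alone called Acaca, and without ozone library 3 the difference was -0.31.

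Fasn, the synthase, had 552 at the lowest, 949 at the median and 1859 at the highest in sham ozone rats. In sham air rats it had 2345, 4046, 2255, 1484 and 1784. Only ozone library 5, with 1859, reached into the air range, and Fasn fell by 1.28 ± 0.33 (adjusted p = 0.00566), with the widest error of the 5 that fell. Me1, a source of NADPH, had 287 at the lowest, 384 at the median and 497 at the highest in ozone. In the air group Me1 had 503, 810.0, 619, 678 and 536. The groups did not overlap, although the highest ozone rat and the lowest air rat were close, and Me1 fell by 0.76 ± 0.17 (adjusted p = 0.00212). Elovl6, the elongase, was barely detected, with a mean of 9.71 normalised counts over the 22 libraries, under the minimum of 10 for testing. In sham ozone it lay between 0 and 14.2, and in sham air between 3.72 and 19.3. Fitted without the minimum, its difference in sham rats was -1.07 ± 0.74 and did not pass (adjusted p = 0.321 in limma).

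Of the desaturases, Fads2, which acts at the first step, had 7454 at the lowest, 8127 at the median and 8772 at the highest in sham ozone rats. In sham air rats it had 17922, 18758, 23786, 15062 and 12222. The 6 ozone rats lay in a narrow band wholly under the air range, and Fads2 fell by 1.08 ± 0.13 (adjusted p = 1.71e-06), to 0.473 times the air level. Its coefficient of variation was 6.62% in sham ozone and 24.7% in sham air. Fads1, which acts later, had 7296 at the lowest, 8699 at the median and 11903 at the highest in ozone. The air group had 19030.5, 17785, 21045, 14996 and 12727. The groups did not overlap, and Fads1 fell by 0.90 ± 0.18 (adjusted p = 0.000619). Altogether 4 of the 9 genes were lower in ozone without overlap between groups, against 7.21% of all genes tested, and none was higher without overlap, against 8.15%.

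The regulators overlapped between sham ozone and sham air. Srebf1 had 2990.1 at the lowest, 4724 at the median and 7713 at the highest in ozone. In air it had 3975, 4727, 5389.9, 3026 and 3393. Its estimate lay above 0, opposite to the enzymes, at 0.25 ± 0.24 (95% confidence interval -0.25 to 0.74, adjusted p = 0.468). Mlxipl had 392 at the lowest, 534 at the median and 760.0 at the highest in ozone. In the air group Mlxipl had 596, 722, 645, 511 and 659, and the difference was -0.25 ± 0.16 (95% confidence interval -0.57 to 0.08, adjusted p = 0.259). Thrsp was spread widely in sham ozone (coefficient of variation 44.7%), with 3990.5 at the lowest, 6891 at the median and 13702 at the highest. The air group had 11157, 13599, 5298, 7418 and 6889.9, and the difference of -0.21 ± 0.30 had a 95% confidence interval of -0.84 to 0.42 (adjusted p = 0.652). Read counts per gene do not separate the transcripts of Srebf1 that start at its different promoters, of which the RefSeq table lists 2.

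**Figure D1:**
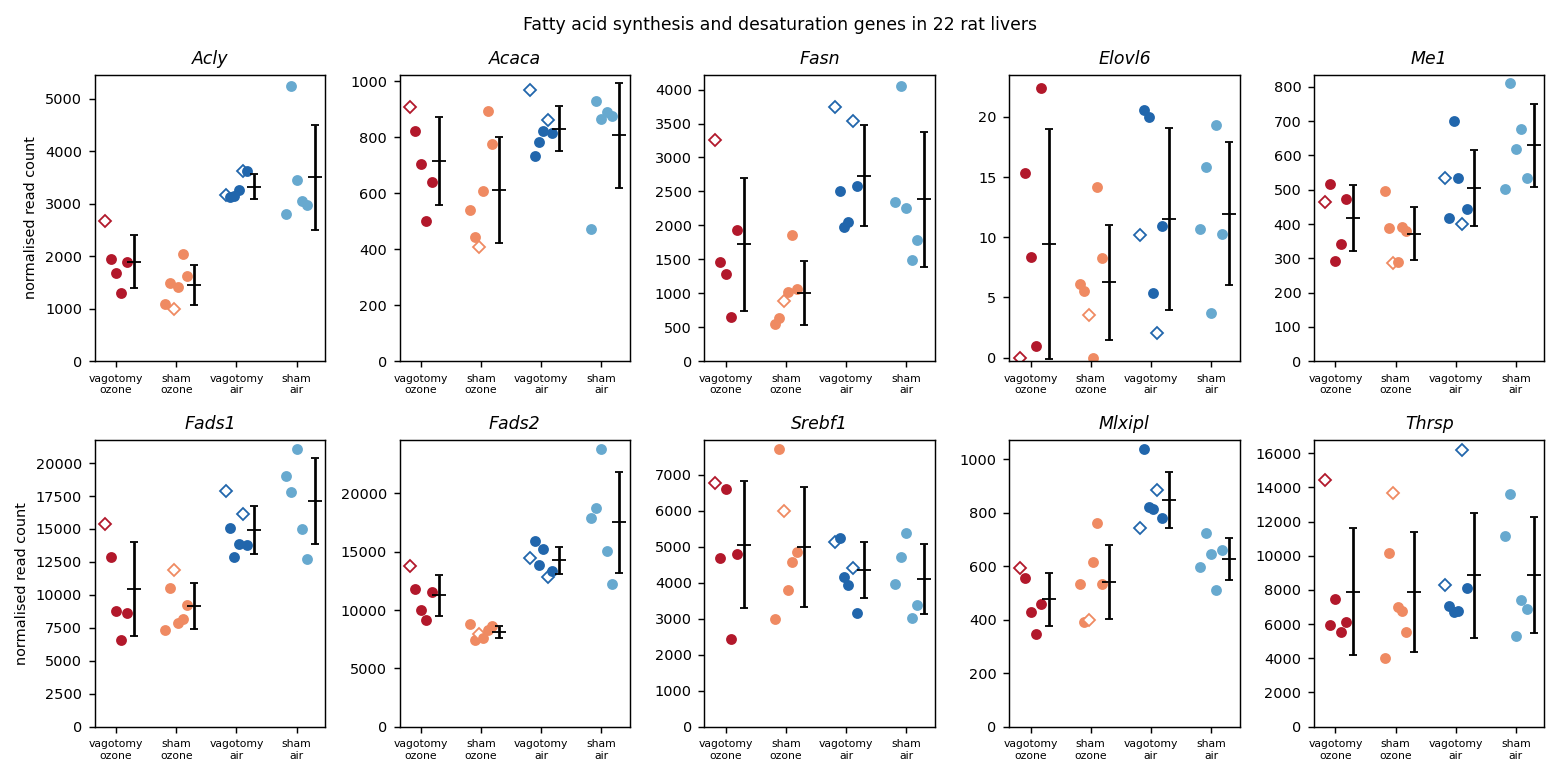
Normalised read count (linear axis from 0, or just below 0 for Elovl6) of the 10 genes in each of 22 livers, grouped from left as vagotomy ozone, sham ozone, vagotomy air and sham air; points are rats, open diamonds are the 4 libraries low in 5.8S, and black bars are the mean and SD. Fads2 in the 6 sham ozone rats sits between 7454 and 8772, below all other rats, while Thrsp and Srebf1 overlap in all 4 groups.

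The next question was what ozone changed after hepatic vagotomy. Of the 9 genes tested 3 fell (Acly, Fads1 and Mlxipl), none rose and 6 did not pass. Fasn and Fads2 joined them at an unadjusted p under 0.05, which 32.4% of all genes had. Over all genes 21.1% passed, namely 9.63% that fell and 11.4% that rose. The median log2 fold change of the 9 was -0.35, against -0.01 over all genes. Acly had 2674, 1957, 1689, 1299 and 1889 in vagotomised ozone rats. In vagotomised air rats it had 3123 at the lowest, 3212 at the median and 3629.6 at the highest. No ozone rat reached the air range, and Acly fell by 0.84 ± 0.18 (adjusted p = 0.00172), to 0.558 times the air level.

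Mlxipl, the ChREBP gene, had 591, 556, 427, 346 and 458 in vagotomised ozone rats. In vagotomised air rats it had 744 at the lowest, 818 at the median and 1037 at the highest. Every ozone rat was below every air rat, and Mlxipl fell by 0.85 ± 0.16 (adjusted p = 0.00044). With Acly it made 2 of 9 genes that were lower without overlap, against 5.21% of all genes tested, and none was higher without overlap, against 6.54%. Fads1 had 15349, 12909, 8759, 6569 and 8593 in ozone. In air it had 12894 at the lowest, 14465 at the median and 17906 at the highest. Ozone libraries 1 and 2 lay inside the air range, and Fads1 fell by 0.58 ± 0.18 (adjusted p = 0.024). That call was lost by limma without air library 1 (adjusted p = 0.055), without ozone library 3 (0.0694), without ozone library 4 (0.091) and without ozone library 5 (0.0619). It was also lost on the 18 libraries with recovered reads in limma, edgeR and DESeq2.

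Fads2 had 13788, 11772, 10022, 9164 and 11522 in vagotomised ozone rats. In vagotomised air rats it had 12835 at the lowest, 14140.2 at the median and 15950.2 at the highest. Only ozone library 1 reached the air range, and the difference of -0.35 ± 0.13 missed the threshold (adjusted p = 0.0532). Fasn had 3257, 1465, 1291, 651 and 1937 in ozone. In the air group Fasn had 1977 at the lowest, 2543 at the median and 3739 at the highest, and the difference of -0.81 ± 0.33 did not pass (adjusted p = 0.0855, 95% confidence interval -1.50 to -0.13). Ozone library 1, which is low in 5.8S, held the highest Fasn count of that group, 3257. Without it limma gave Fasn -1.09 (adjusted p = 0.0154) and Fads2 -0.43 (adjusted p = 0.0207), so that 5 of the 9 genes fell, where 2823 of all genes passed, against 2619 with it. Without all 4 libraries low in 5.8S, 4 of the 9 fell (and 2806 of all genes passed), with Fads2 at -0.46 (adjusted p = 0.0262) and Fasn at -0.86 (adjusted p = 0.0761). Leaving out ozone library 4 instead gave smaller differences, -0.51 for Fasn and -0.28 for Fads2. Of 38 alternative settings, 2 called Fasn and 9 called Fads2 in vagotomised rats.

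Me1 had 464, 517, 292, 341 and 473 in vagotomised ozone rats. In vagotomised air rats it had 399.6 at the lowest, 489 at the median and 699.7 at the highest, and the difference of -0.28 ± 0.17 did not pass (adjusted p = 0.281). Acaca had 908, 824, 705, 501 and 641 in ozone, against 735 at the lowest, 819 at the median and 967 at the highest in air, with a log2 fold change of -0.24 ± 0.19 (95% confidence interval -0.64 to 0.16). Both genes overlapped between groups. Srebf1 had 6785, 4698, 6602, 2424 and 4792 in ozone. The air group had 3155 at the lowest, 4293 at the median and 5247 at the highest, and its estimate again lay above 0, at 0.15 ± 0.24 (95% confidence interval -0.34 to 0.65). Thrsp had 14432, 5925, 7449, 5542 and 6118 in ozone. In air it had 6720.1 at the lowest, 7583 at the median and 16180.3 at the highest, with a difference of -0.19 ± 0.30 (95% confidence interval -0.82 to 0.44). Elovl6 ranged from 0 to 22.4 in ozone and from 2.01 to 20.6 in air, with -0.80 ± 0.74 when fitted without the minimum (adjusted p = 0.526 in limma).

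**Figure D2:**
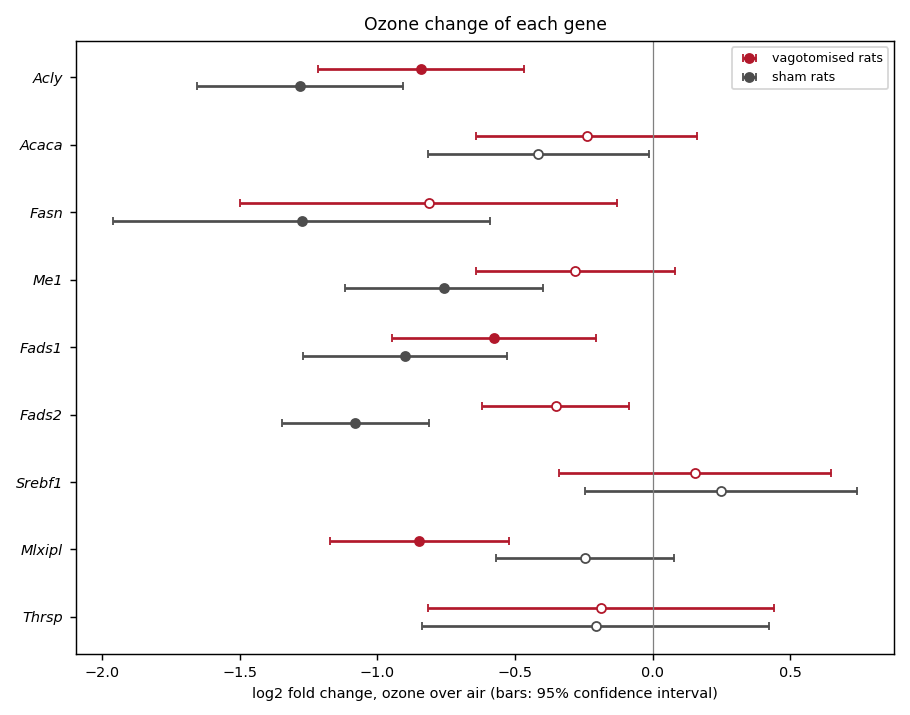
Log2 fold change of ozone over air (horizontal axis) for the 9 tested genes, in vagotomised rats (red) and in sham rats (grey); bars are 95% confidence intervals and filled points have an adjusted p under 0.05. The points of Acly, Fasn, Me1, Fads1 and Fads2 lie farther left in sham rats, that of Mlxipl lies farther left in vagotomised rats at -0.85, and Srebf1 lies right of 0 in both.

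Whether the vagus branch altered the ozone change was read from the difference of the 2 changes, vagotomised minus sham. None of the 9 genes passed in limma, where the share over all genes was 0%, and none passed in edgeR or DESeq2 on the 18 libraries with recovered reads. At an unadjusted p under 0.05 there were 2 of the 9, Fads2 and Mlxipl, against 9.23% of all genes. They differed in opposite directions. For Fads2 the difference was 0.73 ± 0.18, on the side of a smaller decrease after vagotomy (95% confidence interval 0.35 to 1.10, adjusted p = 0.282 in limma). For Mlxipl it was -0.60 ± 0.22, on the side of a larger decrease (95% confidence interval -1.06 to -0.14, adjusted p = 0.421 in limma). For Acly the difference was 0.44 ± 0.26 and for Me1 0.48 ± 0.25, with intervals of -0.09 to 0.97 and -0.03 to 0.99. For Fasn it was 0.46 ± 0.47 (interval -0.51 to 1.43) and for Fads1 0.32 ± 0.25 (interval -0.20 to 0.85). Acaca, Srebf1 and Thrsp had differences of 0.18 ± 0.27, -0.10 ± 0.34 and 0.02 ± 0.43. A call in sham rats that was missed in vagotomised rats, as for Fasn, Me1 and Fads2, was therefore not shown to differ between them.

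Vagotomy was also set against sham within each exposure. In ozone none of the 9 genes passed in limma, while 1.34% of all genes did (0.805% higher and 0.531% lower). On the 18 libraries with recovered reads edgeR called none of the 9, and 114 of the 12431 genes tested there. DESeq2 called 2 of the 9, Fasn and Fads2, and 411 of all genes. At an unadjusted p under 0.05 in limma there were 3 of the 9 (Acly, Fasn and Fads2), all higher after vagotomy. At that p there were 1862 of the 12424 genes tested in either direction, and 7.75% of all genes were higher. Fads2 was higher in each of the 5 vagotomised ozone rats, which started at 9164, than in any of the 6 sham ozone rats, which ended at 8772. It was the 1 gene of the 9 whose groups did not overlap, against 1.18% of all genes that were higher and 0.942% that were lower without overlap. Its difference of 0.46 ± 0.13 missed the threshold (adjusted p = 0.0737). Acly differed by 0.40 ± 0.18 (adjusted p = 0.298) and Fasn by 0.70 ± 0.33 (adjusted p = 0.32), both in limma and both with overlapping groups. The other differences were 0.25 ± 0.19 for Acaca, 0.16 ± 0.17 for Me1, 0.14 ± 0.18 for Fads1 and -0.17 ± 0.16 for Mlxipl. Those of Srebf1 and Thrsp were -0.002 ± 0.24 and 0.02 ± 0.30.

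In air 0% of all genes passed in limma for vagotomy against sham, and edgeR and DESeq2 called none of the 9 either, with 3.11% of all genes and 2 of the 9 (Fads2 and Mlxipl) at an unadjusted p under 0.05. Mlxipl was higher in all 6 vagotomised air rats, from 744, than in any of the 5 sham air rats, up to 722. Its difference was 0.44 ± 0.16 (adjusted p = 1), and 0.201% of all genes were higher and 0.145% lower without overlap. Fads2 differed by -0.27 ± 0.13 (adjusted p = 1), with means of 14269 ± 1171 in vagotomised air and 17549.8 ± 4332 in sham air (SD, n = 6 and 5). Me1 differed by -0.32 ± 0.17 and Fads1 by -0.18 ± 0.18. Acly, Acaca, Fasn, Srebf1 and Thrsp had differences between -0.04 and 0.24, all with overlapping groups.

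**Figure D3:**
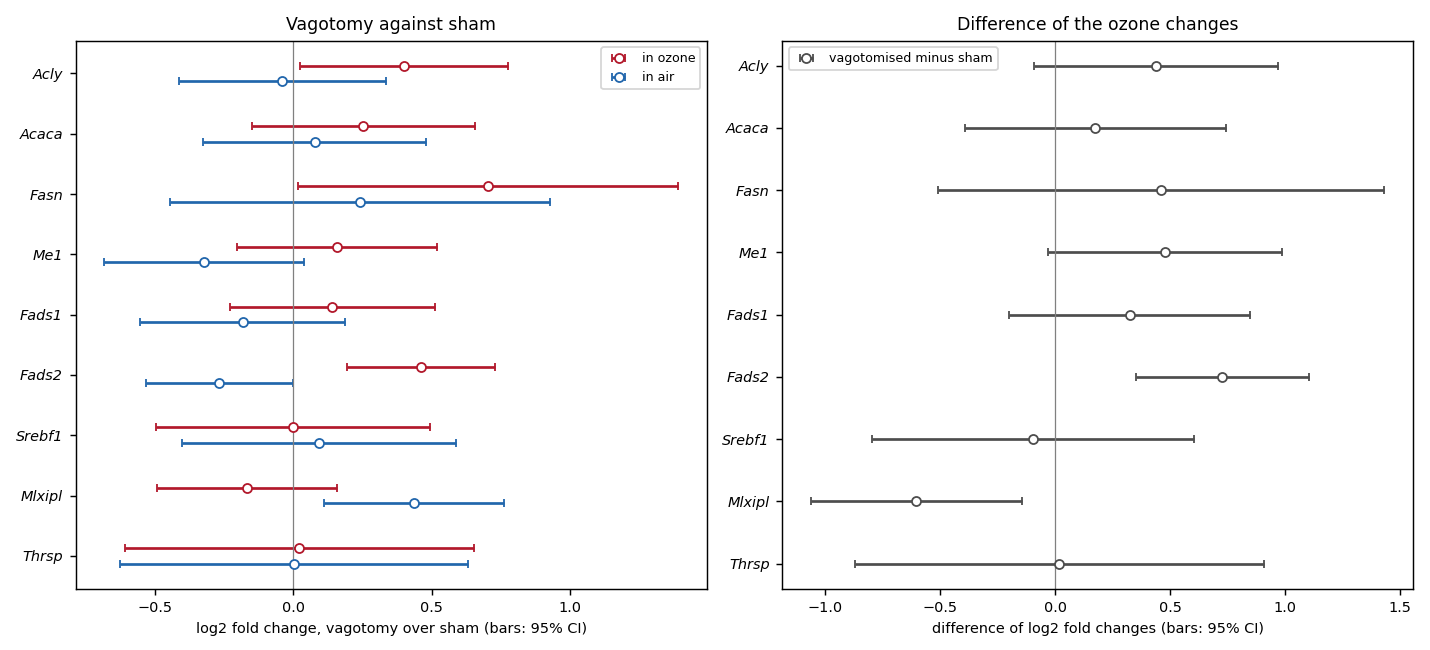
Left, log2 fold change of vagotomy over sham in ozone (red) and in air (blue) for the 9 tested genes; right, the difference of the ozone changes, vagotomised minus sham. Bars are 95% confidence intervals and all points are open because none had an adjusted p under 0.05; Fads2 lies at 0.46 in ozone and -0.27 in air, and Mlxipl at -0.17 and 0.44.

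The order of the group means differed between the genes. For Acly, Me1, Fads1, Fads2, Thrsp and Elovl6 it was sham air, vagotomised air, vagotomised ozone and sham ozone, from high to low. In that order neighbours overlapped, except that vagotomised air and vagotomised ozone were separate for Acly, and vagotomised ozone and sham ozone for Fads2. Acaca and Fasn had vagotomised air first and sham air next, with all neighbours overlapping. Mlxipl, with means of 476 ± 99.2 in vagotomised ozone, 539 ± 138 in sham ozone, 847 ± 105 in vagotomised air and 626 ± 78.8 in sham air (SD), had vagotomised air at the top and vagotomised ozone at the bottom, and of its neighbours only the air groups were separate. Srebf1 was the 1 gene of the 10 with both ozone means (5060.3 ± 1768 in vagotomised and 4990.1 ± 1672 in sham ozone) above both air means (4345 ± 780.0 in vagotomised and 4102 ± 965 in sham air), with all neighbours overlapping.

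Within groups, single rats were high or low in many of these genes together. Vagotomised ozone library 1 was the highest of its group for 8 of the 10 genes (Acly, Acaca, Fasn, Fads1, Fads2, Srebf1, Mlxipl and Thrsp), and library 4 was the lowest for the same 8. In sham air, library 2 was the highest for 6 of the 10, among them Acly at 5253 and Fasn at 4046. In sham ozone, library 5 was the highest for 5 of the 10, with Fasn at 1859. In vagotomised air no library was the highest for more than 4. How often each library was the highest or lowest of its group over all genes was not counted. These counts are therefore not shown to be particular to the 10 genes. Thrsp was at its group's highest in 3 of the 4 libraries low in 5.8S, with 14432 in vagotomised ozone library 1, 13702 in sham ozone library 3 and 16180.3 in vagotomised air library 5. Fads1 was likewise at its group's highest in 3 of the 4, with 15349 in vagotomised ozone library 1, 11903 in sham ozone library 3 and 17906 in vagotomised air library 1, and it was second highest in vagotomised air library 5. The part of 5.8S in these levels was not tested, and no gene of the 9 gained or lost a call without the 4 libraries other than Fads2 in vagotomised rats.

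Markers of other cells were read beside these results. The 4 adipocyte markers with a row summed to 575 to 993 normalised counts in vagotomised ozone and 649.8 to 1201 in sham ozone. In vagotomised air they summed to 512 to 913 and in sham air to 426 to 645. Most of that sum was Cidec, a lipid droplet gene that hepatocytes also express, which rose (0.58 ± 0.17) after ozone in sham rats (adjusted p = 0.0149), against the direction of the enzymes. Of the 7 hepatocyte markers, Cps1 (0.51 ± 0.18) and Hnf4a (0.69 ± 0.11) rose after ozone in sham rats and Apoa1 in vagotomised rats (0.37 ± 0.12), while Hnf4a was lower in vagotomised than in sham rats in ozone (-0.55 ± 0.11, adjusted p = 0.0199 in limma). Of 6 stellate cell markers, Dcn rose (1.27 ± 0.35) and Pdgfrb (-0.87 ± 0.22) and Col3a1 (-0.80 ± 0.27) fell after ozone in sham rats, where the 6 summed to 2293 to 4875 in ozone and 3311 to 6255 in air. Among Kupffer cell markers 1 of 5 tested fell there (Cd68, -0.64 ± 0.24), and of the tested endothelial, cholangiocyte and T cell or neutrophil markers none passed. In vagotomised rats the endothelial marker Lyve1 rose (0.51 ± 0.14), and no tested stellate, Kupffer, cholangiocyte, adipocyte or T cell and neutrophil marker passed. Over all genes tested, 14.6% rose and 13.8% fell after ozone in sham rats. In vagotomised rats 11.4% rose and 9.63% fell, and 1.34% passed for vagotomy against sham in ozone. The part of these cells in the results was not tested.

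Other genes of the pathway were read from 4 lists. Their counts are read beside the 21.1% of all genes that passed in vagotomised rats and the 28.4% that passed in sham rats. In the list of carbon and NADPH supply the share called was near these. Of 9 tested, 1 rose, 1 fell and 7 did not pass in vagotomised rats, with a median log2 fold change of -0.07, and 0 rose, 2 fell and 7 did not pass in sham rats, with a median of -0.25. Idh1, the cytosolic isocitrate dehydrogenase that makes NADPH, fell in vagotomised (-0.39 ± 0.12) and in sham rats (-0.60 ± 0.12). Mlycd, which destroys malonyl-CoA, rose in vagotomised rats (0.46 ± 0.17, adjusted p = 0.0475 in limma) and had 0.39 ± 0.17 in sham rats.

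In the list of elongation and desaturation, the medians lay near 0, at 0.12 in vagotomised and 0.04 in sham rats. Of 15 tested, 1 rose, 1 fell and 13 did not pass in vagotomised rats, and 2 rose, 1 fell and 12 did not pass in sham rats. Scd, the stearoyl-CoA desaturase that makes oleate, had -0.01 ± 0.54 in vagotomised rats, which did not pass, with means of 8705 ± 9901 in ozone and 6906 ± 4153 in air (SD, n = 5 and 6). In sham rats it fell (-1.94 ± 0.54, adjusted p = 0.00958 in limma), the largest change of the list there, with means of 2605 ± 1302 in ozone and 10986 ± 6724 in air (SD, n = 6 and 5). The difference between these changes was 1.93 ± 0.77 (adjusted p = 0.462 in limma). Hacd3, a dehydratase of the elongation cycle, rose in vagotomised (0.87 ± 0.10) and in sham rats (0.53 ± 0.10), against the direction of Fads1 and Fads2, and it was higher in vagotomised than in sham rats in ozone (0.43 ± 0.10, adjusted p = 0.0385 in limma). Cyb5a, the cytochrome that passes electrons to desaturases, had -0.004 ± 0.10 in vagotomised rats, which did not pass, and rose in sham rats (0.45 ± 0.10). Acsl3, which activates fatty acids with CoA, fell in vagotomised rats (-0.57 ± 0.13) and had -0.28 ± 0.13 in sham rats.

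In the list of genes that control SREBP1 and ChREBP, changes went both ways. Of 20 tested, 2 rose, 7 fell and 11 did not pass in vagotomised rats, and 4 rose, 4 fell and 12 did not pass in sham rats, with 5 called in both (55.6% of the calls in vagotomised and 62.5% of those in sham rats). Mid1ip1 was placed in this list although its product binds acetyl-CoA carboxylase and not these 2 factors. A relative of Thrsp, Mid1ip1 fell in vagotomised (-0.86 ± 0.27) and in sham rats (-1.96 ± 0.27). Its mean was 231 ± 76.6 in sham ozone and 888 ± 229 in sham air (SD, n = 6 and 5), whereas Thrsp did not pass in either. Srebf2, whose product drives cholesterol synthesis, fell in vagotomised (-0.73 ± 0.12) and in sham rats (-0.87 ± 0.12), unlike Srebf1. Mlx, the dimer partner of ChREBP, rose in vagotomised (0.81 ± 0.15) and in sham rats (0.80 ± 0.15). Prkaa1, a catalytic subunit of the AMP-activated kinase that inhibits Acaca, rose by 0.98 ± 0.19 in vagotomised and 0.86 ± 0.19 in sham rats. Akt2, a kinase of insulin signalling, fell in vagotomised rats (-0.41 ± 0.10). The other calls of this list are named after their values were seen. In sham rats Insig1, which holds SREBPs in the endoplasmic reticulum, rose (1.49 ± 0.39), as did the LXR partner Rxra (0.57 ± 0.16), while the SREBP escort Scap (-0.29 ± 0.08) and Nr1h3, which encodes the liver LXR (-0.41 ± 0.10), fell. In vagotomised rats Scap (-0.25 ± 0.08), Insig2 (-0.39 ± 0.14), Pparg (-0.84 ± 0.21) and Nr0b2 (-1.08 ± 0.37) fell, and Insig1 had 0.14 ± 0.39, which did not pass (adjusted p = 0.843 in limma). In ozone, vagotomised rats had less of Usf2, an E-box factor, than sham rats (-0.47 ± 0.12, adjusted p = 0.0456 in limma).

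In the list of other targets of SREBP1 and ChREBP, the median was -0.30 in vagotomised and -1.09 in sham rats. Of 10 tested, 0 rose, 2 fell and 8 did not pass in vagotomised rats, and 2 rose, 5 fell and 3 did not pass in sham rats. Pklr, the liver pyruvate kinase and a target of ChREBP, fell in vagotomised (-0.90 ± 0.20) and in sham rats (-1.22 ± 0.20). Gpam, which starts glycerolipid assembly, had -0.20 ± 0.15 in vagotomised rats, which did not pass, and fell in sham rats, with means of 1029 ± 226 in ozone and 2039.8 ± 358 in air (SD, n = 6 and 5, adjusted p = 4.09e-05 in limma). Tkfc, a kinase of fructose breakdown, had -0.22 ± 0.19 in vagotomised rats and fell in sham rats (-1.18 ± 0.19). Gpam and Tkfc were higher in vagotomised than in sham rats in ozone, by 0.69 ± 0.15 (adjusted p = 0.0337) and 0.98 ± 0.19 (adjusted p = 0.0161) in limma. Angptl8, an insulin-induced inhibitor of lipoprotein lipase, had -0.87 ± 0.35 in vagotomised rats, which did not pass, and fell in sham rats (-1.97 ± 0.35). The 2 that rose in sham rats, named after their values were seen, were Lpin1, a phosphatidate phosphatase (1.45 ± 0.44), and Mlxip (0.50 ± 0.16). Mlxip is a relative of Mlxipl placed in this list, and whether it is a target of either factor was not tested.

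**Figure D4:**
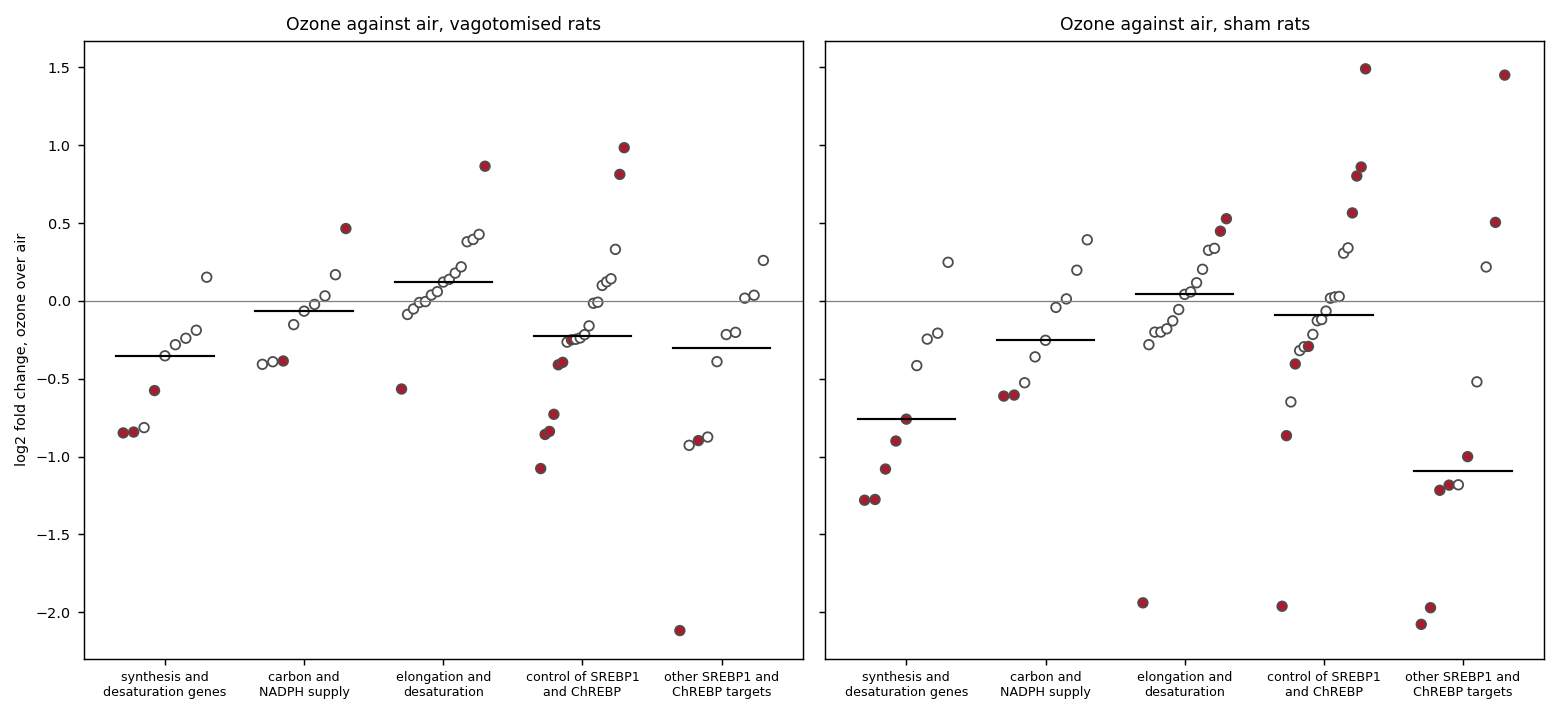
Log2 fold change of ozone over air for each tested gene of the set and of the 4 pathway lists, in vagotomised rats (left) and sham rats (right); each point is a gene, filled where its adjusted p was under 0.05, and the line is the list's median. The median of the synthesis and desaturation genes lies at -0.35 in vagotomised and -0.76 in sham rats, and the elongation and desaturation list has its median near 0 in both, with Scd at -1.94 in sham rats.

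The genes most like the set were found by the Pearson correlation with the mean standardised log2 level of the 9 tested genes over the 22 libraries, which share the exposure groups and are given as a description. The 5 highest were Nsdhl, an enzyme of cholesterol synthesis (0.89), Pklr (0.89), Ndst1, a heparan sulfate enzyme (0.89), Nup133, a nuclear pore gene (0.88), and Specc1l (0.88). On deviations from the group means, which remove the exposure groups, the 5 highest were Dhcr7, another cholesterol synthesis enzyme (0.84), Il17rb (0.83), Cd164 (0.82), Nckap5 (0.81) and Slc4a1 (0.81). The lists of 5 share no gene. By the same measure each gene of the set was held against the mean of the other 8. Over all libraries Acly (0.91) and Fasn (0.91) were closest to the rest, and Thrsp (0.32) and Srebf1 (0.08) were farthest. Over the 36 pairs of tested genes the correlation on deviations from the group means ran from -0.26 to 0.80, with a median of 0.38. On such deviations from the group means Srebf1 stood at 0.53, Acly at 0.80, Fasn at 0.83, Thrsp at 0.26 and Me1 at 0.23.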

How the data were processed

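RNA from 10 to 20 mg of liver went into 22 libraries (PrepX RNA-Seq kit), per the labels' protocols. The deposited signal is the authors' normalised read count, 1 column per library. STAR, Partek, DESeq and DESeq2, with build rn6, are named without versions in the submitters' processing notes. All 22 columns were used. Genes with a mean of at least 10 were tested (12424 genes) as log2 of the count plus 1, with limma 3.58.1 in R 4.3.3 (trend, 4 group means in 1 fit, two-sided, Benjamini-Hochberg over all genes tested, threshold 0.05). Elovl6 fell under the minimum, which left 9 of the 10 genes. Values of every column were whole multiples of 1 step within 0.001, as read counts divided by 1 factor per library are. Because the step of 4 columns is close to 1, reads were taken as recovered in 18 libraries, where 100% of values were whole. edgeR 4.0.16 (quasi-likelihood, TMM) and DESeq2 1.42.0 were run on those, an alternative chosen after seeing the data. No 2 libraries of a group were copies (chi-square per degree of freedom at least 9.75 over 50 pairs). The 10 genes, the lists and the alternatives were chosen with earlier results of these data known. All 10 genes, up to 4 called genes per pathway list with the smallest p in each ozone comparison, and the 5 most alike genes are named, apart from a few pathway genes whose values are not reported here. Marker genes were named where called, and Alb and the further called pathway genes after their values were seen. The procedure was tested on simulated data. Plots used matplotlib 3.10.9 under Python 3.11.15.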

Additional observations from a re-analysis of the deposited data

Results flagged for a closer look

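Of 40 sets of 5 or 6 rats (10 genes in 4 groups), 4 had 1 rat far from the others by Dixon's 95% limit, and chance gives about 1 in 20. Acly in sham air library 2 was 5253 normalised counts, against 3448 in the next highest rat. Acaca in sham air library 1 was 474, against 866 in the next lowest rat. Thrsp in vagotomised ozone library 1 was 14432, against 7449 in the next highest rat, and in vagotomised air library 5 it was 16180.3, against 8279. These last libraries are both low in 5.8S ribosomal RNA, whose part in the values was not tested.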

How the results depend on the processing

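The 5 falls in sham rats kept their direction and call in all 38 alternatives, and so did those of Acly and Mlxipl in vagotomised rats. Fads1 in vagotomised rats was called in 31 of 38, and had adjusted p = 0.16 by limma, 0.213 by edgeR and 0.188 by DESeq2 on the 18 libraries. The number of the 9 genes called in vagotomised rats was 6 with array weights, and 2 to 5 with 1 library left out. For vagotomy against sham in ozone it was 1 with equal column totals (Fads2), 2 with DESeq2 (Fasn and Fads2), and 0 to 1 with 1 library left out. Over all genes, vagotomised rats had 3962 called with array weights, and 1853 to 2858 with 1 library left out. Equal column totals gave 200 of all genes for vagotomy against sham in ozone, 171 of them higher. Vagotomy against sham in ozone had 166 as reported, 93 with quantile normalisation, 14 with only the groups compared, 270 with array weights, 269 without the libraries low in 5.8S, 321 with log2 5.8S as a covariate, 99 with limma and 411 with DESeq2 on the 18 libraries, and 15 to 217 with 1 library left out. The difference of the ozone changes had 13 genes with array weights, 1 with DESeq2 and 0 to 1 with 1 library left out, and vagotomy against sham in air had 1 with DESeq2. edgeR on the 18 libraries called 114 for vagotomy against sham in ozone and 0 for the difference and for vagotomy in air. For ozone edgeR called 2132 genes in vagotomised and 2957 in sham rats. The cause was not tested.

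Equal column totals shifted the median of all genes by -0.10 for ozone in sham rats and by 0.10 for vagotomy against sham in ozone, and made 33.9% and 85.5% of called genes higher, against 51.3% and 60.2% as reported. Equal upper quartiles gave 39.3% for ozone in sham rats, and quantile normalisation 72% for vagotomy in ozone.

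Of 1701 values of single genes under the alternatives, 60 changed sign, none of them called in either setting. For Srebf1 (vagotomy against sham in ozone) these were 0.10 (equal column totals), 0.0227 (equal upper quartiles), 0.13 (quantile normalisation), 0.0719 (array weights), 0.18 (limma on the 18), 0.13 (edgeR), 0.13 (DESeq2). For Srebf1 (difference of the ozone changes) these were 0.0186 (quantile normalisation), 0.0006 (the 5.8S covariate), 0.0329 (limma on the 18). For Thrsp (vagotomy against sham in ozone) these were -0.0222 (the replicate block), -0.0375 (no libraries low in 5.8S), -0.0368 (the 5.8S covariate). For Thrsp (difference of the ozone changes) these were -0.0691 (the replicate block). For Acaca (vagotomy against sham in air) these were -0.0677 (array weights). For Thrsp (vagotomy against sham in air) these were -0.0357 (array weights), -0.23 (no libraries low in 5.8S), -0.26 (the 5.8S covariate), -0.0117 (limma on the 18), -0.0643 (edgeR), -0.0579 (DESeq2). For Fasn (vagotomy against sham in air) these were -0.0026 (the 5.8S covariate). For Srebf1 (vagotomy against sham in air) these were -0.0293 (the 5.8S covariate). For Thrsp (ozone change in vagotomised rats) these were 0.10 (limma on the 18), 0.20 (edgeR), 0.20 (DESeq2). For Acly (vagotomy against sham in air) these were 0.0909 (limma on the 18), 0.0874 (edgeR), 0.0894 (DESeq2). For Thrsp (ozone change in sham rats) these were 0.0489 (edgeR), 0.0581 (DESeq2). With 1 library left out, ranges that crossed 0 were -0.10 to 0.14 for Acaca (vagotomy against sham in air), -0.22 to 0.21 for Thrsp (difference of the ozone changes), -0.11 to 0.12 for Acly (vagotomy against sham in air), -0.19 to 0.18 for Thrsp (vagotomy against sham in air), -0.0074 to 0.20 for Srebf1 (vagotomy against sham in air), -0.23 to 0.15 for Srebf1 (difference of the ozone changes), -0.43 to 0.0011 for Thrsp (ozone change in vagotomised rats), -0.22 to 0.21 for Thrsp (vagotomy against sham in ozone), -0.14 to 0.24 for Srebf1 (vagotomy against sham in ozone) and -0.0147 to 0.29 for Fads1 (vagotomy against sham in ozone).

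The labels do not say that a replicate number marks a shared animal, batch or day. Over 20 same-numbered pairs the correlation of deviations from group means was -0.32 to 0.61, and over 0.1 in 6, in no comparison for every pair, so the numbers were not taken to pair the libraries. With the replicate block, 3 of the 9 genes were called in vagotomised and 5 in sham rats, and of all genes 2490 in vagotomised and 3306 in sham rats. Count tests on all 22 libraries were not run, and the restriction to the compared groups does not apply to the difference of the ozone changes.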
